A study of Mus musculus with 30 samples.

Results

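Toll-like receptors are pattern-recognition receptors, and Myd88 is the adaptor that most of them use. The 10 genes described here, out of 51752 in the count table, are Tlr1, Tlr2, Tlr3, Tlr4, Tlr5, Tlr6, Tlr7, Tlr9, Tlr13 and Myd88, chosen by symbol and described across both tissues and all 4 arms of the study. The series concerns interleukin-34 (IL-34), a cytokine that acts through the microglial receptor Csf1r, in the mouse forebrain. In the genotype experiment, 3 animals labelled IL34 KO (1 male, 2 females) were compared with 4 labelled IL34 Het (2 males, 2 females), so the control arm carries 1 altered copy of Il34 too. In the antibody experiment, 4 wild-type animals given an antibody labelled a-IL34 (3 males, 1 female; here anti-IL34) were compared with 4 wild-type animals given the control antibody labelled a-gp120 (2 males, 2 females; here anti-gp120). From each of the 15 animals, 1 hemisphere became a library of whole forebrain, and the other a library of cells isolated with magnetic beads by CD11b, called microglia in the labels. The labels give neither the age of the animals nor the design of the Il34 allele, and no antibody dose or schedule. Below, deletion stands for the label IL34 KO, although some Il34 reads remained in KO libraries.

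Each Toll-like receptor recognises a class of microbial or damage-related molecule. Tlr1, Tlr2, Tlr4, Tlr5 and Tlr6 act mainly at the cell surface. Tlr2 pairs with Tlr1 or Tlr6 to detect bacterial lipopeptides, Tlr4 detects lipopolysaccharide, and Tlr5 detects flagellin. Tlr3, Tlr7, Tlr9 and Tlr13 act in endosomes and detect nucleic acids: double-stranded RNA, single-stranded RNA, unmethylated CpG DNA and bacterial ribosomal RNA. Myd88 carries the signal of all of these receptors except Tlr3, which uses the adaptor Ticam1, towards NF-kappaB and interferon regulatory factors. In the brain, microglia are the main cells that carry these receptors, and astrocytes are also known to use Tlr3.

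The members lie on 7 mouse chromosomes in GRCm38 (GENCODE M21 annotation). Tlr1 (ENSMUSG00000044827, chr5:64924679-64933563, minus strand) and Tlr6 (ENSMUSG00000051498, chr5:64952031-64960097, minus strand) are neighbours 18467 bases apart. Tlr7 (ENSMUSG00000044583, chrX:167304929-167330558, minus strand) lies 40599 bases from Tlr8, and Tlr13 (ENSMUSG00000033777, chrX:106143204-106160493, plus strand) is elsewhere on the same chromosome. Tlr9 (ENSMUSG00000045322, chr9:106222598-106226883, plus strand) and Myd88 (ENSMUSG00000032508, chr9:119335934-119341411, minus strand) share chromosome 9. The others are Tlr2 (ENSMUSG00000027995, chr3:83836272-83841767, minus strand), Tlr3 (ENSMUSG00000031639, chr8:45395665-45411080, minus strand), Tlr4 (ENSMUSG00000039005, chr4:66827584-66930284, plus strand) and Tlr5 (ENSMUSG00000079164, chr1:182954788-182976044, plus strand). Tlr4 stands apart by its introns, with a span of 102701 bases around 5556 bases of exon.

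The promoter stretches of 4 of the 7 members whose RNA fell together in the isolated cells after the deletion are printed here, as the sequence just upstream of each gene. They were taken from RefSeq promoters of GRCm38.p6, which matched 8 of the 10 members. Capitals mark a match on either strand to GAGGAAGT, a core letter string for the myeloid factor PU.1 (found in Tlr1), or to TGANTCA, one for AP-1 (found in Tlr9). GAAANNGAA, a string for interferon regulatory factors, was searched as well and matched none of the 4. Tlr1 is given for chr5:64933564-64933808 (minus strand), Tlr9 for chr9:106222348-106222597 (plus strand), Tlr5 for chr1:182954538-182954787 (plus strand) and Tlr13 for chrX:106143025-106143203 (plus strand).
Tlr1: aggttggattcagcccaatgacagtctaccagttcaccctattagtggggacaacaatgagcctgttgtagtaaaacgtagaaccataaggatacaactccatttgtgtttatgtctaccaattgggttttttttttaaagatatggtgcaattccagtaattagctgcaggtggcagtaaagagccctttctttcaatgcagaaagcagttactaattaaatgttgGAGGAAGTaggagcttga
Tlr9: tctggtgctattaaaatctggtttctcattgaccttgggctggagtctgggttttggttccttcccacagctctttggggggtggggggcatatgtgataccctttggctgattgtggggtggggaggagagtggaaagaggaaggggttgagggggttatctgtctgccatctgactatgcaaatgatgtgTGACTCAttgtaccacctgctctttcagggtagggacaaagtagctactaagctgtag
Tlr5: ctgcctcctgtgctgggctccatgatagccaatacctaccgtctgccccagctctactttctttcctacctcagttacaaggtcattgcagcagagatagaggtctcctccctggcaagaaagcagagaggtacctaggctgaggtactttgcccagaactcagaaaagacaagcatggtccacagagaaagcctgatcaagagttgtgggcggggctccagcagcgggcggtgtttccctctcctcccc
Tlr13: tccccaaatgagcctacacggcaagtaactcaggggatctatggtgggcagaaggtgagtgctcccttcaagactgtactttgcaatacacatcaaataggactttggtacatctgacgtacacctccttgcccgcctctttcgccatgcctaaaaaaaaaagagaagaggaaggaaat
The PU.1 string of Tlr1 begins 23 bases before the RefSeq start, and the AP-1 string of Tlr9 58 bases before it. Over windows of 250 bases before the start, 2.44% of all 32851 mouse promoters hold the PU.1 string, 6.75% the AP-1 string and 7.13% the interferon regulatory factor string. Tlr5 and Tlr13, the only members that fell past the threshold in the isolates of both experiments, hold none of the 3 strings in the stretches printed, which for Tlr13 covers 179 of the 250 bases. Tlr6, which fell in the KO isolates as well and is not printed, holds none in its 201 bases.

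Libraries held 15.1 to 75.2 M counts (M, mega) in forebrain and 15.8 to 50.5 M in the isolates. Levels are given as CPM, counts per M counts after TMM scaling within a tissue and experiment. Il34 itself read 6.81 to 8.79 CPM in KO forebrain against 19.3 to 23.6 in Het, and 36.7 to 41.2 with anti-IL34 against 31.9 to 38.9 with anti-gp120. In the isolates Il34 was low and overlapped between KO (5.34 to 7.29 CPM) and Het (5.20 to 10.6 CPM). The microglia identity of the isolates was checked on 9 marker genes, of which Fcrls was not matched in the table. Their summed level was 7419 to 12852 CPM in Het and 8443 to 11217 in anti-gp120 isolates, against 214 to 275 CPM in anti-gp120 forebrain. It was 2836 to 3055 CPM in KO and 3421 to 5356 CPM in anti-IL34 isolates, below all control isolates. Astrocyte markers (6 genes) were present in every isolate, at 2997 to 10978 CPM in Het, 12101 to 15242 in KO, 3978 to 15825 in anti-gp120 and 8864 to 16353 in anti-IL34. The same sum in forebrain was 6703 to 7402, 6620 to 6982, 6864 to 7498 and 5756 to 6993 CPM, in that order. Every KO and anti-IL34 isolate was thus above all forebrain libraries of its own arm. The oligodendrocyte markers (7 genes) summed to 2908 to 9934 CPM in Het, 7935 to 17880 in KO, 3430 to 8588 in anti-gp120 and 5407 to 11644 in anti-IL34 isolates. In forebrain they summed to 4888 to 5815, 3988 to 4263, 4671 to 4910 and 3486 to 5448 CPM, in that order. Here too every KO isolate was above all KO forebrain libraries. Border macrophage markers (6 genes) summed to 785 to 941 CPM in Het, 417 to 857 in KO, 501 to 925 in anti-gp120 and 345 to 492 in anti-IL34 isolates, and neutrophil and monocyte markers (8 genes) to 38.9 to 54.6, 33.9 to 93.0, 40.4 to 264 and 130 to 412 CPM in the same order. Choroid plexus markers (5 genes) differed most between the experiments, at 1693 to 3907 CPM in Het and 1185 to 3090 in KO isolates, against 3.05 to 7.5 in anti-gp120 and 7.08 to 1964 in anti-IL34 isolates. Neuron markers (6 genes) summed to 111 to 432 CPM in Het, 378 to 642 in KO, 178 to 543 in anti-gp120 and 407 to 689 in anti-IL34 isolates. Endothelial and mural markers overlapped between all arms, at 546 to 961 CPM. None of these other cells' markers was at 0 in a whole arm of the isolates. The part these other cells have in the results below was not tested.

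Myd88, the shared adaptor, read 0 counts in all 30 libraries, so no comparison of it could be made. A count of 0 allows up to 3 counts by counting error, which is 0.0399 to 0.199 CPM at these depths, but this limits reads assigned to the gene and not its RNA. The whole 5478 bases of the Myd88 span lie inside the span of Slc22a14, on the same strand (chr9:119169455-119365553), and 1736 of them also overlap Acaa1a on the other strand. Of the 446 protein-coding genes that lie wholly inside another gene on the same strand, 418 (93.7%) also read 0 in every library. The share was 10.3% (79 of 768) for genes inside another gene on the other strand only, and 9.79% (2010 of 20521) for genes inside no other gene. The Length deposited with the counts was equal to the whole gene span for 51183 of 51498 matched genes. Itgam, which encodes CD11b, the protein used for the isolation, is a parallel case: 99.9% of its span is shared with Gm49368 on the same strand, and it read 0 in 26 of 30 libraries with at most 3 counts in any. The level of Myd88 RNA can therefore not be read from this table. None of the 9 receptor genes shares bases with a gene on its own strand, and only Tlr3 has one on the other strand, Gm45542, with 24 counts over all libraries.

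**Figure D1:**
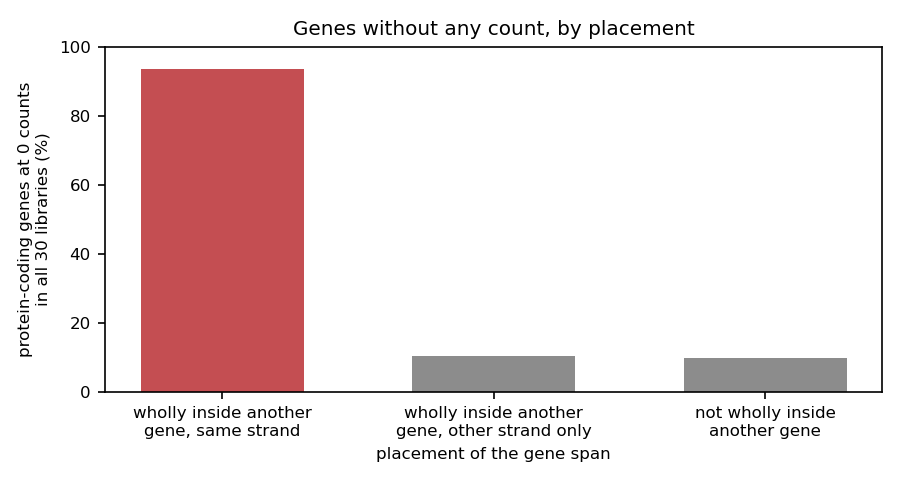
Share of protein-coding genes with 0 counts in all 30 libraries (vertical axis, percent) by where the gene span lies (horizontal axis). The bar for genes wholly inside another gene on the same strand, the placement of Myd88, stands at 93.7%, against 10.3% and 9.79% for the other 2 bars.

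All 9 receptor genes were detected in both tissues of the 8 control animals, and all 9 were higher in the isolated cells. The difference was largest for Tlr2, at a log2 difference of 7.67 ± 0.23 (SE, edgeR adjusted p = 6.11e-14), and smallest for Tlr3, at 2.26 ± 0.11 (adjusted p = 9.08e-12). Between them came Tlr9 (6.79), Tlr7 (6.30), Tlr13 (6.01), Tlr1 (5.21), Tlr5 (4.90), Tlr6 (4.88) and Tlr4 (4.40). Since 84.1% of all genes tested passed the threshold between these tissues in either direction, the call itself says little, and the size carries the information. The members' median was 5.21, against -0.04 over all genes tested.

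Levels between genes were compared per kb of exon and per M counts. In control isolates the order was Tlr7 (77.5 ± 19.2, SD, n = 8), Tlr2 (70.7 ± 27.0), Tlr13 (32.1 ± 6.86), Tlr9 (27.8 ± 9.0), Tlr3 (13.2 ± 2.13), Tlr4 (12.3 ± 1.70), Tlr1 (10.0 ± 2.68), Tlr6 (5.46 ± 0.856) and Tlr5 (5.4 ± 0.723). These means pool both experiments, and the order at both ends differed between them, with overlap. Tlr7 was above Tlr2 in Het isolates (72 ± 24.3 against 56.5 ± 15.0, n = 4) and just under it in anti-gp120 isolates (82.9 ± 13.8 against 84.8 ± 30.8, n = 4). Tlr5 was above Tlr6 in Het isolates (5.55 ± 0.646 against 5.29 ± 0.784) and under it in anti-gp120 isolates (5.25 ± 0.860 against 5.62 ± 1.01). The order of the other 5 was the same in both. Over the pooled libraries, only Tlr1 and Tlr6, among neighbours in this order, had libraries that did not overlap. In control forebrain Tlr3 was highest, at 2.93 ± 0.339, above every library of the next gene, Tlr7 (1.11 ± 0.369). Below these came Tlr4 (0.641), Tlr13 (0.566), Tlr2 (0.379), Tlr1 (0.286), Tlr9 (0.274), Tlr6 (0.208) and Tlr5 (0.202), each overlapping its neighbours. The first 5 kept this order in each experiment, and the last 4 did not. The receptor for double-stranded RNA thus led in forebrain but ranked 5 in the isolates. The deposited TPM values, which divide by the whole gene span, give another order in the isolates: Tlr2 first (748 ± 243), Tlr9 next (437 ± 117), Tlr7 (241 ± 48.9) and Tlr13 (156 ± 25.6), with Tlr4 last (13.1 ± 1.37). Whether reads in introns were counted is not given in the sources used here, but the deposited Length was the whole gene span for 51183 of 51498 matched genes. If they were counted, the levels per kb of exon hold intron reads as well, divided by exon length alone.

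**Figure D2:**
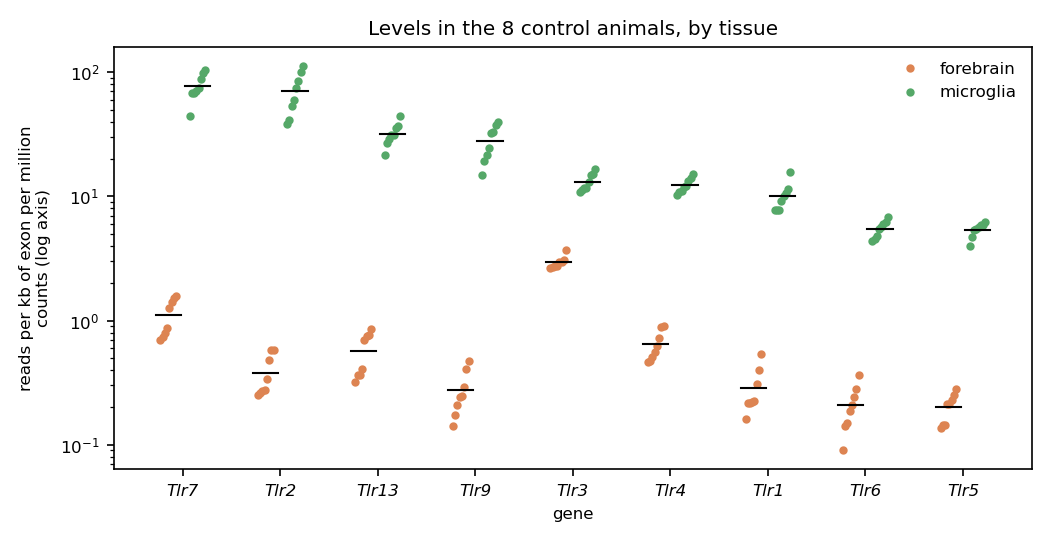
Level of each receptor gene in the 8 control animals (4 Het, 4 anti-gp120), as reads per kb of exon per M counts on a log axis, with 1 point per library and a line at the mean. Isolated cells (labelled microglia) lie above forebrain for all 9 genes, and Tlr3 has the highest forebrain level, with a mean of 2.93.

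In forebrain, deletion of Il34 lowered the RNA of Tlr7 and Tlr13, both endosomal sensors of RNA. Tlr7 read 3.57, 3.19, 2.85 and 3.02 CPM in the 4 Het animals and 1.88, 1.52 and 0.998 in the 3 KO animals, with no overlap. Its log2 difference was -1.04 ± 0.18 (SE, edgeR adjusted p = 0.0174), 48.5% of the Het level. Tlr13 read 1.38, 1.56, 1.73 and 1.6 CPM in Het and 0.493, 0.630 and 0.950 in KO, again with every KO animal below every Het animal. The log2 difference of Tlr13 was -1.27 ± 0.24 (adjusted p = 0.0283). In a bulk sample such as forebrain, fewer cells of a type and less RNA per cell cannot be told apart, and the microglia marker sum moved with these genes, from 138 to 154 CPM in Het to 48.2 to 52.2 CPM in KO.

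The other endosomal members did not pass the threshold in KO forebrain. Tlr9 read 0.494 to 0.865 CPM in Het and 0.185, 0.371 and 0.0475 CPM in KO, where the lowest library held 1 count, and its log2 difference was -1.58 ± 0.40 (adjusted p = 0.165). It was -2.31 without KO animal 6 and -1.26 without KO animal 24, past the threshold in neither, and it passed with no filter on low counts (edgeR adjusted p = 0.000985). Tlr3 overlapped between Het (13.8 to 15.4 CPM) and KO (11.7 to 14.5 CPM), at -0.18 ± 0.09 (adjusted p = 0.676). Among the surface receptors, Tlr1 read 0.718 to 0.750 CPM in Het and 0.241 to 0.618 in KO, with a log2 difference of -1.03 ± 0.33 (adjusted p = 0.392). The remaining values were -0.39 for Tlr2, -0.37 for Tlr4, -0.62 for Tlr5 and -0.75 for Tlr6. In all, 2 of 9 members passed, against 0.62% of the 19343 genes tested. The KO and Het libraries did not overlap for 6 of 9 members, all lower in KO, against 9.06% of genes in either direction. The median of the 9 was -0.75, with 0.00 over all genes. The count of 2 fell to 0 when Het animal 1, Het animal 20, KO animal 3 or KO animal 6 was left out, and to 1 without Het animal 21, Het animal 23 or KO animal 24.

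**Figure D3:**
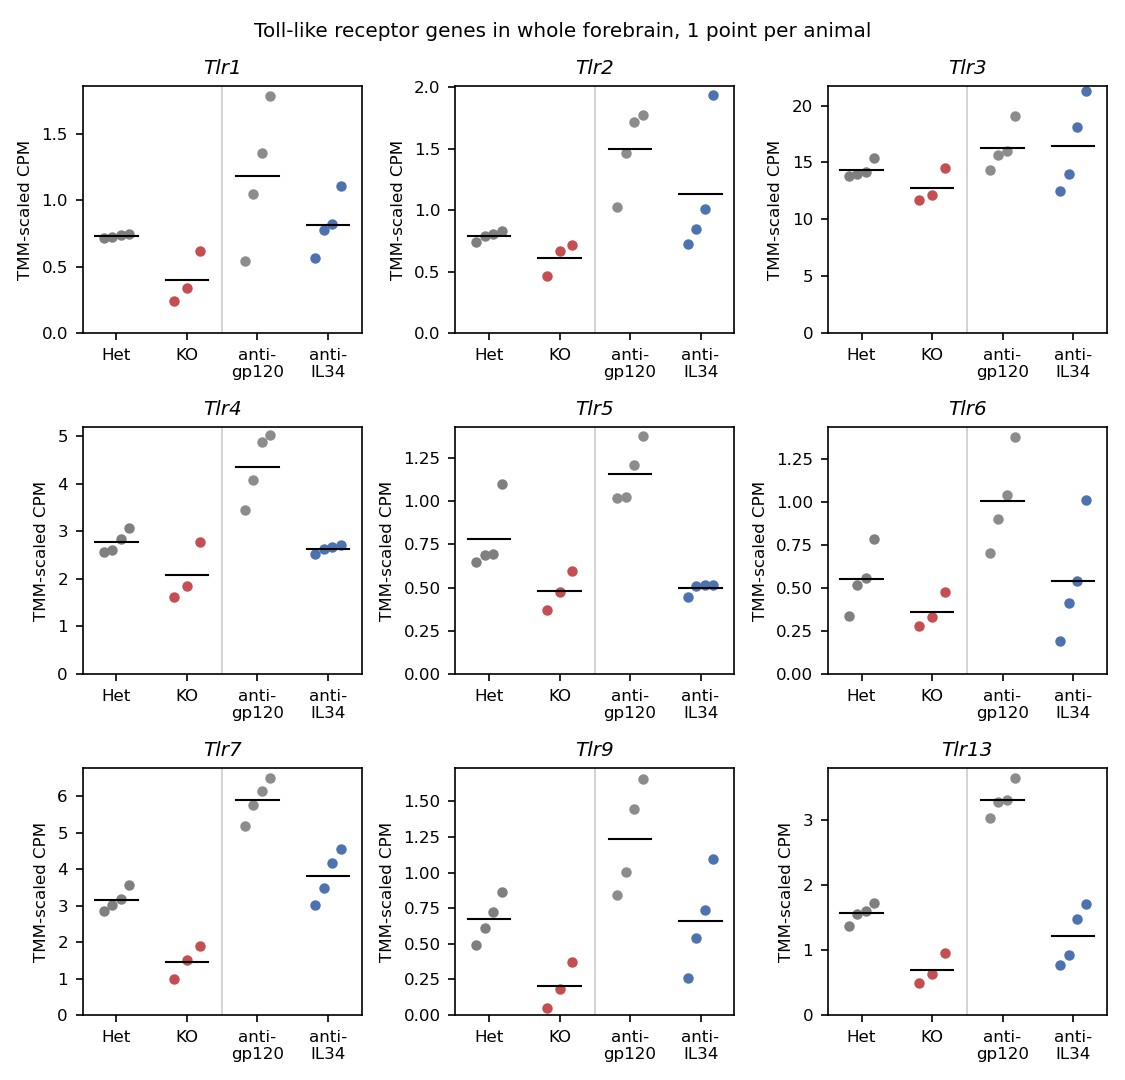
CPM of the 9 receptor genes in whole forebrain, 1 panel per gene, with 1 point per animal in the Het, KO, anti-gp120 and anti-IL34 arms and a line at each mean. The vertical grey line separates the genotype and antibody experiments. KO points of Tlr7 and Tlr13 lie below all Het points, anti-IL34 points of Tlr13 (0.775 to 1.70 CPM) lie below all anti-gp120 points (3.03 to 3.65 CPM), and Tlr3 overlaps in both experiments.

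In isolated cells, 7 of the 9 receptor genes fell with the deletion, against 5.37% of the 18185 genes tested. Of the endosomal receptors, Tlr7 read 178, 279, 450 and 290 CPM in Het and 85.4, 103 and 118 in KO, a log2 difference of -1.56 ± 0.33 (SE, edgeR adjusted p = 0.0477). Tlr9 read 50.1, 73.0, 119 and 88.4 CPM in Het and 22.2, 30.6 and 34.3 in KO (-1.56 ± 0.32, adjusted p = 0.0447). Tlr13 read 90.9, 121, 168 and 120 CPM in Het and 43.5, 53.5 and 46.9 in KO (-1.39 ± 0.23, adjusted p = 0.0242). All 3 were therefore at 33.8% to 38.2% of the Het level, with no overlap between the arms. Tlr3 differed less, with 59.7, 74.7, 72.7 and 58.5 CPM in Het and 50.8, 50.6 and 51.2 in KO. The log2 difference of Tlr3, -0.38 ± 0.13, did not pass (adjusted p = 0.123), although its arms did not overlap either.

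Of the surface receptors, Tlr5, the flagellin receptor, had the smallest adjusted p. It read 25.0, 28.7, 30.1 and 23.5 CPM in Het and 11.0, 11.7 and 7.79 in KO, a log2 difference of -1.38 ± 0.19 (edgeR adjusted p = 0.0159). Tlr4 read 59.8, 64.9, 83.0 and 61.9 CPM in Het and 29.98, 34.2 and 31.2 in KO (-1.07 ± 0.16, adjusted p = 0.0172). Tlr6 fell from 17.4 to 22.4 CPM in Het to 6.39 to 10.1 in KO (-1.39 ± 0.22, adjusted p = 0.0216). Tlr1 fell from 25.3 to 37.9 CPM in Het to 12.9 to 17.1 in KO (-1.09 ± 0.20, adjusted p = 0.0320). Tlr2, the partner of Tlr1 and Tlr6, read 112 to 237 CPM in Het and 98.1 to 102 in KO and did not pass (-0.78 ± 0.26, adjusted p = 0.114).

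The arms did not overlap for any of the 9 members in the isolates, all lower in KO, but 37.7% of all genes tested there did not overlap in either direction. The members' median was -1.38, with 0.02 over all genes. All 7 microglia markers tested fell in the same comparison, with a median of -1.63, and the astrocyte marker sums of KO and Het isolates did not overlap. The count of 7 fell to 0 when Het animal 20, Het animal 23 or any 1 of the 3 KO animals was left out. It was 8 without Het animal 1 and 7 without Het animal 21. When RLE size factors replaced TMM, 5 passed, and Tlr7 (adjusted p = 0.0576) and Tlr9 (adjusted p = 0.0549) did not. In those fits each of the 9 log2 differences stayed negative, for example from -1.52 to -1.24 for Tlr5 and from -1.47 to -1.20 for Tlr13.

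**Figure D4:**
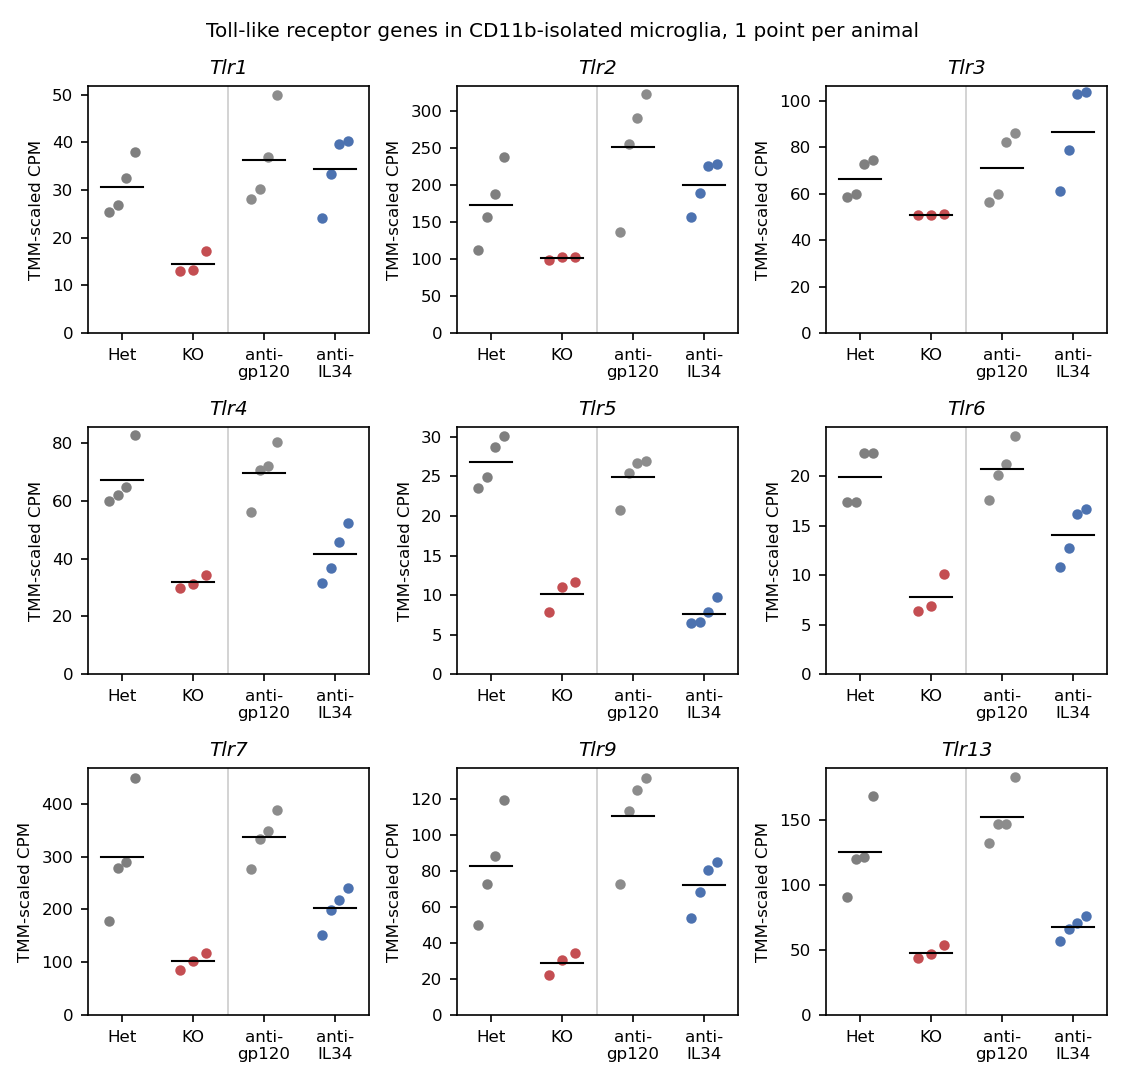
CPM of the 9 receptor genes in CD11b-isolated cells (labelled microglia), 1 panel per gene, with 1 point per animal in the 4 arms. A line stands at each mean. The vertical grey line separates the 2 experiments. KO points lie below all Het points in every panel, and anti-IL34 points lie below all anti-gp120 points for Tlr4, Tlr5, Tlr6, Tlr7 and Tlr13.

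Antibody against IL-34 lowered Tlr13 in forebrain. It read 3.65, 3.03, 3.28 and 3.32 CPM in the anti-gp120 animals and 0.775, 1.48, 0.928 and 1.70 in the anti-IL34 animals, with no overlap. The log2 difference was -1.43 ± 0.23 (SE, edgeR adjusted p = 0.0149), 37.2% of the control level. The microglia marker sum moved with it, from 214 to 275 CPM with anti-gp120 to 78.9 to 106 CPM with anti-IL34. Tlr13 was the only member of 9 past the threshold, against 0.717% of the 17143 genes tested. Tlr5 read 1.02, 1.02, 1.38 and 1.21 CPM with anti-gp120 and 0.517, 0.447, 0.515 and 0.506 with anti-IL34, also apart, but missed the threshold (-1.14 ± 0.23, adjusted p = 0.0562). Tlr4 (3.46 to 5.02 against 2.52 to 2.71 CPM) and Tlr7 (5.18 to 6.5 against 3.01 to 4.55 CPM) did not overlap either and had adjusted p of 0.110 and 0.182.

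These 4 members without overlap, all lower with anti-IL34, compare with 3.29% of genes in either direction. Tlr3 read 14.4 to 19.1 CPM with anti-gp120 and 12.5 to 21.2 with anti-IL34, a log2 difference of -0.06 ± 0.15 whose sign changed without the sex term and without anti-gp120 animal 1 or anti-IL34 animal 10 or 11. Tlr1 (-0.74), Tlr2 (-0.56), Tlr6 (-0.78) and Tlr9 (-1.08) overlapped between the arms. The members' median was -0.74, with 0.00 over all genes. The call of Tlr13 was lost without anti-gp120 animal 1 or anti-IL34 animal 11, the only female of its arm, where its largest adjusted p was 0.151. With no filter on low counts, 5 members passed (Tlr4, Tlr5, Tlr7, Tlr9 and Tlr13).

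In isolated cells the antibody lowered Tlr5 and Tlr13. Tlr5 read 26.9, 26.7, 25.4 and 20.8 CPM with anti-gp120 and 6.48, 7.80, 9.70 and 6.60 with anti-IL34. The gap between the arms was wide, and the log2 difference was -1.68 ± 0.17 (SE, edgeR adjusted p = 0.0175), 31.1% of the control level. Tlr13 read 183, 132, 147 and 147 CPM with anti-gp120 and 70.6, 56.6, 76.0 and 66.0 with anti-IL34 (-1.17 ± 0.14, adjusted p = 0.0362). These 2 of 9 members compare with 0.626% of the 17570 genes tested. In the same comparison 5 of 7 microglia markers tested fell, with a median of -1.21. The microglia marker sum was 8443 to 11217 CPM with anti-gp120 and 3421 to 5356 with anti-IL34, and that of border macrophage markers was 501 to 925 and 345 to 492 CPM, neither with overlap. The part of these shifts in the members' values was not tested.

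The other surface and endosomal receptors did not pass in the antibody isolates. Tlr4 (56.2 to 80.3 against 31.5 to 52.2 CPM; -0.70 ± 0.17, adjusted p = 0.0834), Tlr7 (277 to 388 against 152 to 240 CPM; -0.70 ± 0.17, adjusted p = 0.0835) and Tlr6 (17.6 to 24.1 against 10.8 to 16.7 CPM; -0.55 ± 0.18, adjusted p = 0.138) had arms that did not overlap. With Tlr5 and Tlr13 this makes 5 of 9 members lower without overlap, against 15.5% of genes in either direction. Tlr9 (-0.63) and Tlr2 (-0.35) overlapped. Tlr1 read 28.1 to 49.9 CPM with anti-gp120 and 24.1 to 40.3 with anti-IL34 (-0.09 ± 0.24), and its sign changed without anti-gp120 animal 1 or anti-IL34 animal 10. Tlr3 read 56.5 to 86.3 CPM with anti-gp120 and 61.3 to 104 with anti-IL34, the only positive member value of the 4 comparisons (0.26 ± 0.23, adjusted p = 0.450). The members' median was -0.63, with 0.06 over all genes.

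The count moved when any 1 of 7 of the 8 animals was left out. The isolate of anti-gp120 animal 15 had an astrocyte marker sum of 15825 CPM, against 3978 to 8017 in the other 3 anti-gp120 isolates, and it had the lowest Tlr1, Tlr2, Tlr5, Tlr6 and Tlr9 of its arm. It also had the highest Tlr3, at 86.3 CPM against 56.5 to 82.4, and its Tlr4, Tlr7 and Tlr13 were not the lowest. Without this animal 7 members passed (Tlr2, Tlr4, Tlr5, Tlr6, Tlr7, Tlr9 and Tlr13). Without any 1 of anti-gp120 animals 1, 7 and 8 or anti-IL34 animals 2, 10 and 24, none passed, and without anti-IL34 animal 11 the same 2 passed. Over those fits Tlr5 stayed between -1.94 and -1.61 and Tlr13 between -1.29 and -0.995. DESeq2 called 4 members (Tlr4, Tlr5, Tlr7 and Tlr13).

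**Figure D5:**
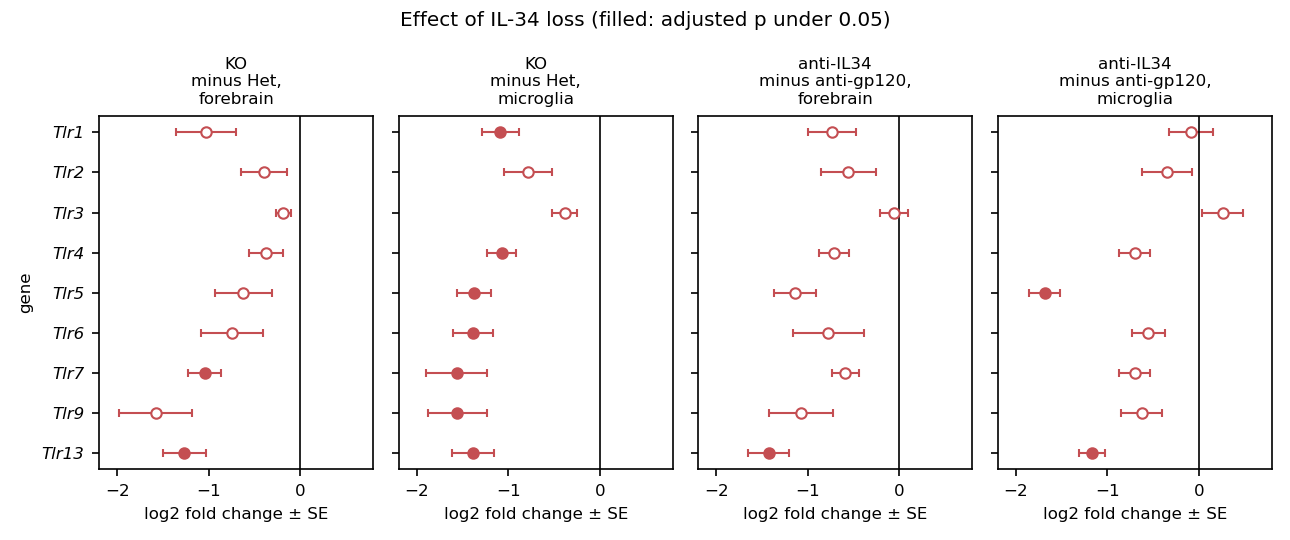
Log2 fold change with its standard error for the 9 receptor genes (vertical axis) in the 4 comparisons, from edgeR. Filled points passed an adjusted p of 0.05: 2 in KO forebrain, 7 in KO isolates, 1 in anti-IL34 forebrain and 2 in anti-IL34 isolates. Tlr13 is filled in all 4 panels, and the isolates are labelled microglia.

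Tlr13 passed in each of the 4 comparisons and Tlr5 in both comparisons of isolates. The differences between comparisons were tested directly. Between tissues, no member passed for the deletion (2.98% of genes passed) or for the antibody (0.0924% of genes passed). In the deletion test the largest member values were -0.72 ± 0.36 for Tlr5 (microglia minus forebrain; edgeR adjusted p = 0.197) and -0.66 ± 0.26 for Tlr4 (adjusted p = 0.129), with 0.12 as the median over all genes. In the antibody test they were 0.64 ± 0.38 for Tlr1 (adjusted p = 0.315) and -0.55 ± 0.26 for Tlr5 (adjusted p = 0.244). At an unadjusted p under 0.05 there was 1 member in the deletion test, Tlr4, and 0 in the antibody test, and DESeq2 called 0 in both.

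Between experiments, no member passed the test of the deletion difference against the antibody difference. In forebrain the largest values, deletion minus antibody, were -0.51 ± 0.61 for Tlr9 and 0.50 ± 0.38 for Tlr5 (both edgeR adjusted p = 0.9999), and 0.0101% of genes passed. With 1 animal left out the Tlr9 value ran from -1.37 (without KO animal 6) to -0.21 (without KO animal 24), and the Tlr5 value from 0.29 (without KO animal 6) to 0.72 (without KO animal 3). In the isolates 8 of 9 values were negative, led by Tlr1 (-0.97 ± 0.33, adjusted p = 0.907) and Tlr9 (-0.90 ± 0.41, adjusted p = 0.9999), and 0% of genes passed. There, 5 members had an unadjusted p under 0.05, against 0 in forebrain, and DESeq2 called 0 in both. The share of all genes at an unadjusted p under 0.05 is not given here. The different mean of Tlr1 in KO (14.4 ± 2.32 CPM, SD, n = 3) and anti-IL34 isolates (34.3 ± 7.54 CPM, n = 4) stands beside control means of 30.6 and 36.3 CPM.

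The receptor genes were also set against microglia markers. For each library the mean log2 level of 7 markers (Csf1r, Cx3cr1, P2ry12, Tmem119, Aif1, Siglech and Gpr34) was taken from the log2 level of each member, with no test. Members higher than the control arm without overlap numbered 3 of 9 in KO forebrain, 5 of 9 in KO isolates, 5 of 9 in anti-IL34 forebrain and 7 of 9 in anti-IL34 isolates, and all others overlapped. The markers' own median log2 differences were -1.42, -1.63, -1.60 and -1.21 in the same order. A gene with an unchanged level would therefore be higher on this scale too. No share over all genes is given on this scale, so these counts are not particular to the members. The difference was highest for Tlr3, at 1.29 in KO forebrain, 1.32 in KO isolates, 1.54 in anti-IL34 forebrain and 1.55 in anti-IL34 isolates, without overlap between arms in each. Tlr2, whose own level missed the threshold in all 4 comparisons of arms, was at 1.07, 0.97, 1.07 and 1.003 in the same order. Tlr13 was at 0.23, 0.34, 0.04 and 0.11, with overlap except in KO isolates, where it was higher in KO. In KO isolates the values nearest to the markers were those of Tlr7 (0.21), Tlr9 (0.23), Tlr5 (0.28) and Tlr6 (0.32), each with overlap. Tlr5 was at -0.44 in anti-IL34 isolates, the lowest member there, though the arms overlapped on this scale. Tlr9 was at -0.69 in KO forebrain, with overlap, a value that rests on KO animal 24, whose library held 1 count of Tlr9 (0.0475 CPM). Without that library, an alternative chosen after seeing the data, Tlr9 was at 0.13. It was at 0.23, 0.51 and 0.67 in the other 3 comparisons. The median over the members ran from 0.34 in KO isolates to 0.84 in anti-IL34 forebrain. Astrocytes and border macrophages can also hold Toll-like receptor RNA, and their part in these ratios was not tested.

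Genes that work with these receptors were read from lists, beside the shares of all genes that passed (0.62%, 5.37%, 0.717% and 0.626% for KO forebrain, KO isolates, anti-IL34 forebrain and anti-IL34 isolates). These shares are for edgeR calls. Counts at an unadjusted p under 0.05 or by DESeq2 have no share over all genes beside them and give no pathway result. Of the co-receptors and trafficking chaperones in KO forebrain, 2 of 9 fell: Unc93b1 (-0.92 ± 0.10, SE, edgeR adjusted p = 0.000354), which carries the endosomal receptors to their compartment, and Cd180 (-0.94 ± 0.15, adjusted p = 0.0103), a receptor related to Tlr4. In KO isolates 4 of 9 fell: Unc93b1 (-1.47), Cd180 (-1.46), Ly86 (-1.31), the partner of Cd180, and Cnpy3 (-0.73), a chaperone of several Toll-like receptors. In anti-IL34 forebrain 2 of 9 fell, Cd180 (-1.20) and Ly86 (-1.10), and in anti-IL34 isolates edgeR called 0 of 9, while DESeq2 called 4 and 5 had an unadjusted p under 0.05.

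Of the 3 other Toll-like receptor genes, Tlr12 fell in KO isolates, from 6.43 to 11.0 CPM in Het to 2.72 to 3.23 in KO (-1.62 ± 0.24, edgeR adjusted p = 0.0183). Tlr8, next to Tlr7, read 6.71 to 9.49 CPM in Het and 5.07 to 9.64 in KO isolates and did not pass. Of 17 adaptors and kinases, Irak4 (-0.64), the kinase recruited by Myd88, passed in KO isolates, where 10 had an unadjusted p under 0.05 and DESeq2 called 9. In the other comparisons edgeR called 0 of 17, with 0 at an unadjusted p under 0.05 in KO forebrain, 1 in anti-IL34 forebrain and 6 in anti-IL34 isolates, and DESeq2 called 0, 0 and 2. Of the 6 other receptors that signal through Myd88, Il1rl2 (-1.08), a receptor for interleukin-36, fell in KO isolates. Of 8 NF-kappaB subunits and interferon regulatory factors, edgeR called 0 in KO isolates, where their median was -1.02, 5 had an unadjusted p under 0.05 and DESeq2 called 4. Of 13 genes induced by these receptors, edgeR called 0 in KO isolates, with a median of -0.71, 3 at an unadjusted p under 0.05 and 3 called by DESeq2. Of 9 inhibitors edgeR called 0 in each comparison, with 0 to 2 at an unadjusted p under 0.05, and DESeq2 called 1, in KO isolates. Of the 65 listed genes, 2 of 53 tested passed in KO forebrain and 7 of 64 in KO isolates, all lower, beside 0.62% and 5.37% of all genes in either direction. In the antibody experiment 4 of 50 passed in forebrain, 2 higher and 2 lower, and 1 of 65, higher, in the isolates, beside 0.717% and 0.626% of all genes.

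The pathway genes that rose did so with the antibody. In forebrain these were Irf7 (2.17 ± 0.31, edgeR adjusted p = 0.00843), an interferon regulatory factor used by Tlr7 and Tlr9, and Cxcl10 (2.55 ± 0.43, adjusted p = 0.0205), a chemokine. In the isolates Ifnb1, which encodes interferon beta, rose (1.596 ± 0.26, adjusted p = 0.0485). A list of 10 interferon-induced genes, Irf7 among them, rose in 10 of 10 in anti-IL34 forebrain (median 2.28) by edgeR and by DESeq2. In anti-IL34 isolates its median was 2.25, and edgeR called 0 of 10, although all 10 had an unadjusted p under 0.05 and DESeq2 called 9. In KO forebrain the median was -0.22 and in KO isolates -0.53, with 0 of 10 called by edgeR, 1 and 2 at an unadjusted p under 0.05, and 0 and 1 called by DESeq2.

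The genes most like each member across the 30 libraries, by Pearson's r of log2 CPM centred on the tissue mean over 14408 genes, differed between members. This is a description over libraries that share arm and depth. Tlr7 was most like Mpeg1 (r = 0.952), Ctss and Unc93b1, and Tlr13 was most like Dock2 (r = 0.936), Cx3cr1 and Olfml3. Tlr2 was most like Pik3ap1 (r = 0.918), Naip2 and Ptprc. Tlr3 was most like Trim12c (r = 0.885), Rnf114 and Trim12a. Tlr1, Tlr5, Tlr6 and Tlr9 had a mean under 1 CPM in forebrain and were left out.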

How the data were processed

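RNA was sequenced from 30 libraries of 15 mice, and the groups, sexes and animal numbers were taken from the labels. The authors deposited raw counts per gene and TPM values. Per the submitters' processing notes, STAR 2.7.5c, featureCounts 1.6.3, R 4.4.0 and the build GRCm38 were used. Counting settings are not given in the sources used here. The deposited TPM values divide by a deposited Length, a unit outside the usual ones. The authors' 6 count columns and 6 TPM columns without a labelled sample were not used.

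The test was edgeR 4.0.16 under R 4.3.3 (TMM, filterByExpr on the group, quasi-likelihood F test, sex as a covariate), and p-values were adjusted by Benjamini-Hochberg over all genes tested, with a threshold of 0.05. All 9 members with counts passed the filter in every comparison. Shares over all genes are given for edgeR calls and for arms without overlap. They are not given for unadjusted p, DESeq2 or levels set against markers. Standard errors come from the fold change and its F statistic. Each comparison of arms was fitted on its own tissue and experiment. The contrast of tissues used control animals. Differences between tissues and between experiments were tested as contrasts in 1 fit. Main fits across tissues used both libraries of each animal without an animal term, so their SE and p-values do not use the pairing. Alternatives were DESeq2 1.42.0, RLE size factors, no filter, no sex term, all 15 libraries of a tissue, the animal as a block, and leaving out each animal in turn. The code was tested on simulated data. Libraries of 1 animal share its number in the titles and in the deposited sample sheet (30 of 30 matched), so they are pairs. Deviations of paired libraries from their group means correlated with a median r of 0.12 (0.0551 to 0.213, above 0.1 in 8 of 15 animals).

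Total counts were 15.1 to 75.2 M (mega) per library, so at 1 CPM a gene held about 15 counts in the shallowest. The parts of animal number and of counting error in the precision were not compared. Named pathway genes are those past the threshold, up to 6 per list, except Tlr8, which is named as the neighbour of Tlr7. Genes most like a member are the 3 with the highest r among genes with a mean of at least 1 CPM in both tissues. The members and lists were chosen with earlier results of these data known. A microglia marker, and the genes most like Tlr4, are not reported here.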

Additional observations from a re-analysis of the deposited data

Results flagged for a closer look

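In 54 groups of 4 libraries with a member detected, 2 libraries stood far from the rest of their group by Dixon's criterion at 95%, which chance exceeds in about 1 in 20 groups. In forebrain of Het animals, Tlr5 was highest in animal 21, at 1.10 CPM, against 0.648 to 0.692 in the others. In forebrain of anti-IL34 animals, Tlr5 was lowest in animal 10, at 0.447 CPM, against 0.506 to 0.517 in the others.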

How the results depend on the processing

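In KO forebrain 2 members passed, and 2 passed under every alternative that kept all animals, except 3 with no filter on low counts, where Tlr9 was added. In KO isolates 7 passed, and 5 (RLE size factors, without Tlr7 and Tlr9) to 8 (DESeq2, with Tlr2) did under those alternatives. In anti-IL34 forebrain 1 passed, against 2 with DESeq2, 5 with no filter on low counts, 2 with no sex term and 2 with all 15 libraries. In anti-IL34 isolates 2 passed, against 4 with DESeq2, 4 with no filter, 4 with no sex term and 3 with all 15 libraries. Leaving out single animals gave counts of 0 to 1 in KO forebrain, 0 to 8 in KO isolates, 0 to 1 in anti-IL34 forebrain and 0 to 7 in anti-IL34 isolates. These fits have fewer animals, and some leave 1 or no animal of a sex in an arm. The cause of these and the other changes was not tested.

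Tlr3 in anti-IL34 forebrain turned to 0.0032 with no sex term and ran from -0.21 to 0.073 with 1 animal left out. Tlr1 in anti-IL34 isolates ran from -0.32 to 0.20 with 1 animal left out. No other member's fold change between arms or tissues changed sign in any alternative. The alternatives were run for the members and not for the other pathway genes, apart from DESeq2 counts per list. Of 28 differences between tissues or experiments not named singly, 12 changed sign in at least 1 of their fits, and 0 of 441 fits passed the threshold. With the animal as a replicate block, 9 of 9 members passed between tissues and 0 for either tissue difference, the same as without it. In forebrain, Tlr1, Tlr5, Tlr6 and Tlr9 had as few as 1 to 9 counts in some libraries, so counting error is part of their spread.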
